A study of Mus musculus with 6 samples.

Results

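miR-126 is the best known miRNA of endothelial cells, and its hairpin yields a strand from each arm, miR-126-3p and miR-126-5p. The array carried 1 mouse probe set for each strand, mmu-miR-126-3p_st and mmu-miR-126-5p_st, which were taken by name as 2 of 609 mouse probe sets and of 7625 probe sets in all. Alongside them, 8 probe sets of other mammals bear a miR-126 name, 5 of them named miR-126 and 3 named miR-126-star. They read RNA from the same mice and so count as no further replicates.

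The samples were left upper lung lobes of 6 C57BL/6 mice aged 6 to 10 weeks, 1 array per mouse. The 2 transgenic mice (TG) carried CC10-rtTA-IL13, in which a doxycycline-dependent transactivator under the CC10 promoter, active in club cells of the airway, switches on interleukin 13, which drives allergic airway responses. There were 4 wildtype (WT) mice, and mice of both genotypes drank doxycycline at 2 mg/mL for 7 days. No mouse carried the transactivator alone, so its own effect and that of interleukin 13 cannot be told apart. The comparison asks how the miR-126 strands differ between TG and WT lungs.

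The miR-126 hairpin lies in an intron of Egfl7, a gene of the vessel wall, and is transcribed with it. In endothelial cells miR-126-3p represses Spred1 and Pik3r2, inhibitors of signalling downstream of vascular endothelial growth factor, and also the leukocyte adhesion molecule Vcam1. miR-126-5p represses Dlk1 in mouse endothelium and so sustains endothelial proliferation. Mice without miR-126 have leaky and fragile vessels.

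The locus is shown because the strands have separate probe sets and because a second hairpin, Mir126b, lies on the opposite DNA strand inside it. Sequences are those of RefSeq for build GRCm38.p6, written 5′ to 3′. In the mature sequences the capitals mark the seed (bases 2 to 8), and in the hairpin they mark miR-126-3p.
mmu-mir-126a hairpin, chr2:26591357-26591429, plus strand: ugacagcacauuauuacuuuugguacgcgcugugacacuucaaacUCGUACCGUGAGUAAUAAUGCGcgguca
mmu-miR-126a-3p, chr2:26591402-26591423, plus strand: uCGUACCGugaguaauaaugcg
mmu-miR-126b-5p, chr2:26591399-26591420, minus strand: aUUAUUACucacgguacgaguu
mmu-miR-126b-3p, chr2:26591363-26591385, minus strand: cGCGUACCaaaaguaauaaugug

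The mature sequence of miR-126a-3p spans 22 bases, positions 46 to 67 of the 73-base hairpin, and the hairpin lies within the span of Egfl7 on the same strand. Its seed was found in 0 other names among the 1679 mature mouse miRNA names of the sequence table, and so were the seeds of both miR-126b strands. miR-126b-5p is antisense to miR-126a-3p over 19 consecutive bases. The array has no mouse probe set named for miR-126b, and miR-126a-5p is given here by name only. The array names carry no a or b suffix, and the probe sequences were not used here.

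The 6 arrays differed in how many miRNAs they detected, which bears on every value below. A probe set counted as detected above the 95th percentile of the plant probe sets of its array, a limit of 4.22 and 4.25 in TG and 4.27 to 4.33 in WT on the log2 scale. Among the 609 mouse probe sets, 201 and 199 were detected in TG, and 149, 172, 146 and 132 in WT replicates 1 to 4. The 197 detected on 2 or more arrays were tested. Across these 197, the correlations of WT replicate 4 with the other arrays ran from r = 0.869, the lowest of any pair, to 0.943. The r of WT replicate 2 was 0.963 with either TG array, and 0.949, 0.961 and 0.885 with WT replicates 1, 3 and 4. The highest value of any probe set was 13.36 and 13.19 in TG, 13.23 and 13.13 in WT replicates 2 and 3, and 11.50 and 11.42 in WT replicates 1 and 4. The number of arrays limits the precision throughout. The p-values measure the spread between these arrays, and with 1 array per mouse, variation between mice and between arrays cannot be told apart.

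miR-126-3p was detected on all 6 arrays, far above the detection limit. Its log2 values were 9.30 and 9.34 in TG, and 10.14, 9.48, 10.69 and 11.19 in WT replicates 1 to 4. Both TG values lay below all 4 WT values, and WT replicate 2 came close to them. The TG values differed by 0.03, whereas the WT values spanned 1.71, so the spread behind the comparison is that of the WT arrays.

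The means were 9.32 ± 0.02 for the 2 TG arrays and 10.37 ± 0.74 for the 4 WT arrays (± SD). The difference, TG minus WT, was -1.05 ± 0.44 (SE) on the log2 scale, with a 95% confidence interval of -2.08 to -0.02, which is a 0.482-fold level in TG. limma gave an unadjusted p of 0.0460 and a Benjamini-Hochberg adjusted p of 0.232 over the 197 probe sets, which did not pass the threshold of 0.05. The exact two-sided permutation test over the 15 splits of the arrays gave p = 0.133, and the smallest p that 15 splits allow is 0.0667. Even if the level was lower in TG, fewer endothelial cells and less miR-126 per cell cannot be told apart in lung RNA.

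**Figure D1:**
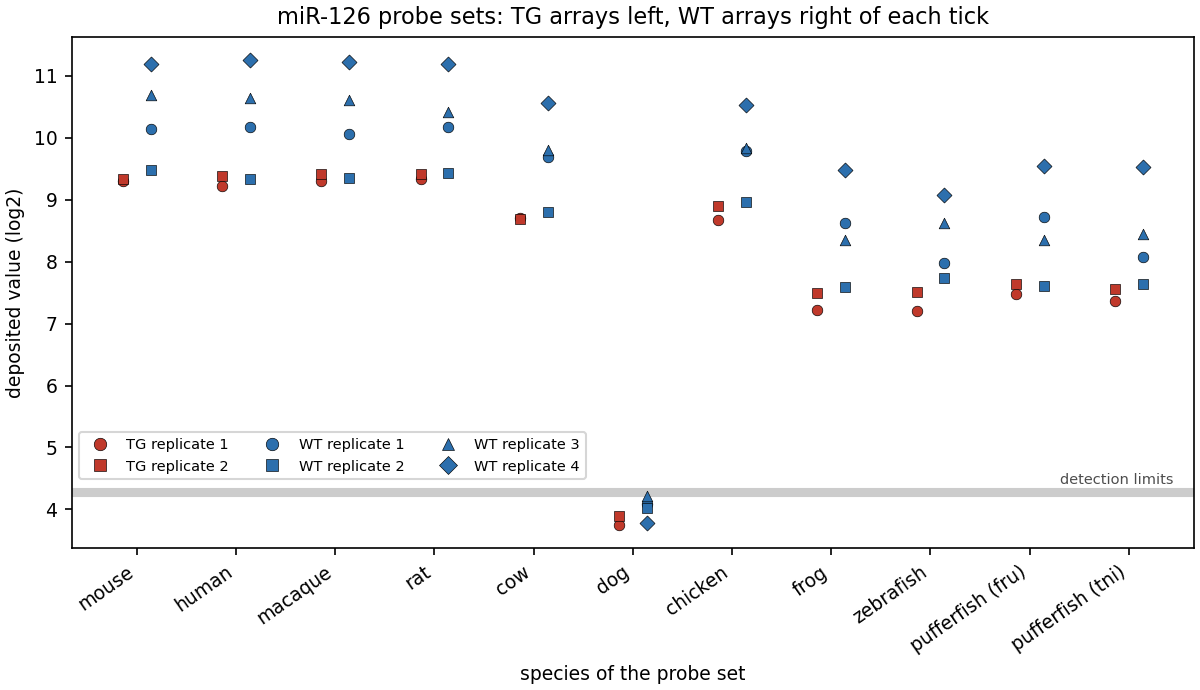
Deposited log2 value (vertical axis) of the mouse miR-126-3p probe set and of the probe sets named miR-126 in 10 other vertebrates (horizontal axis), 1 point per array, TG in red to the left and WT in blue to the right of each tick; the grey band spans the detection limits of the arrays. Apart from the dog probe set, which lies below the limits on all arrays, the TG points lie at about the level of WT replicate 2, the lowest WT array, or below it, and WT replicate 4 is highest.

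Against the other tested miRNAs, the difference of miR-126-3p was the lowest but 2. With all 6 arrays limma called 6 of the 197 (3.05%), every one of them higher in TG, and 0 (0%) lower. At an unadjusted p under 0.05, 5 (2.54%) had lower values in TG, namely miR-805, miR-10a, miR-126-3p, miR-195 and let-7f. The differences were -1.62 ± 0.68 (SE) for miR-805, -1.48 ± 0.34 for miR-10a, -0.98 ± 0.23 for miR-195 and -0.75 ± 0.31 for let-7f. Both TG arrays lay below all WT arrays for 13 of the 197 (6.6%), miR-126-3p among them. The median difference over the 197 was 0.21. The 2 TG arrays alone could meet the filter of 2 or more arrays, so the 197 include probe sets admitted only through TG. Without the filter, the median difference over all 609 mouse probe sets was 0.01, and 1 was called, higher in TG. With the median of the tested probe sets subtracted from each array, the difference of miR-126-3p was -1.49, with an adjusted p of 0.228.

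The place of miR-126-3p in the order of signals on each array needs no scaling between arrays. Among the 609 mouse probe sets it stood at place 17 on both TG arrays, and at places 7, 16, 6 and 2 on WT replicates 1 to 4. WT replicate 2 was thus next to the TG arrays on this measure too. By mean WT signal its neighbours were miR-26a above it and let-7a below it. Such places compare arrays, and signals of different probe sets do not give relative amounts of their miRNAs.

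The call depended on WT replicate 2. Without it the difference was -1.35 ± 0.33 (SE) and the adjusted p of limma was 0.0328, which passed. Without any other single array the adjusted p lay above 0.05, at up to 0.791 without TG replicate 1, where a single TG array was assumed to vary like WT. With array weights the difference was -1.09 ± 0.30, with an adjusted p of 0.0324. Without WT replicate 4 the difference was -0.78 ± 0.35, with an adjusted p of 0.245. On the TG arrays and WT replicates 1 and 2 alone it was -0.49 ± 0.31, with an adjusted p of 0.475.

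**Figure D2:**
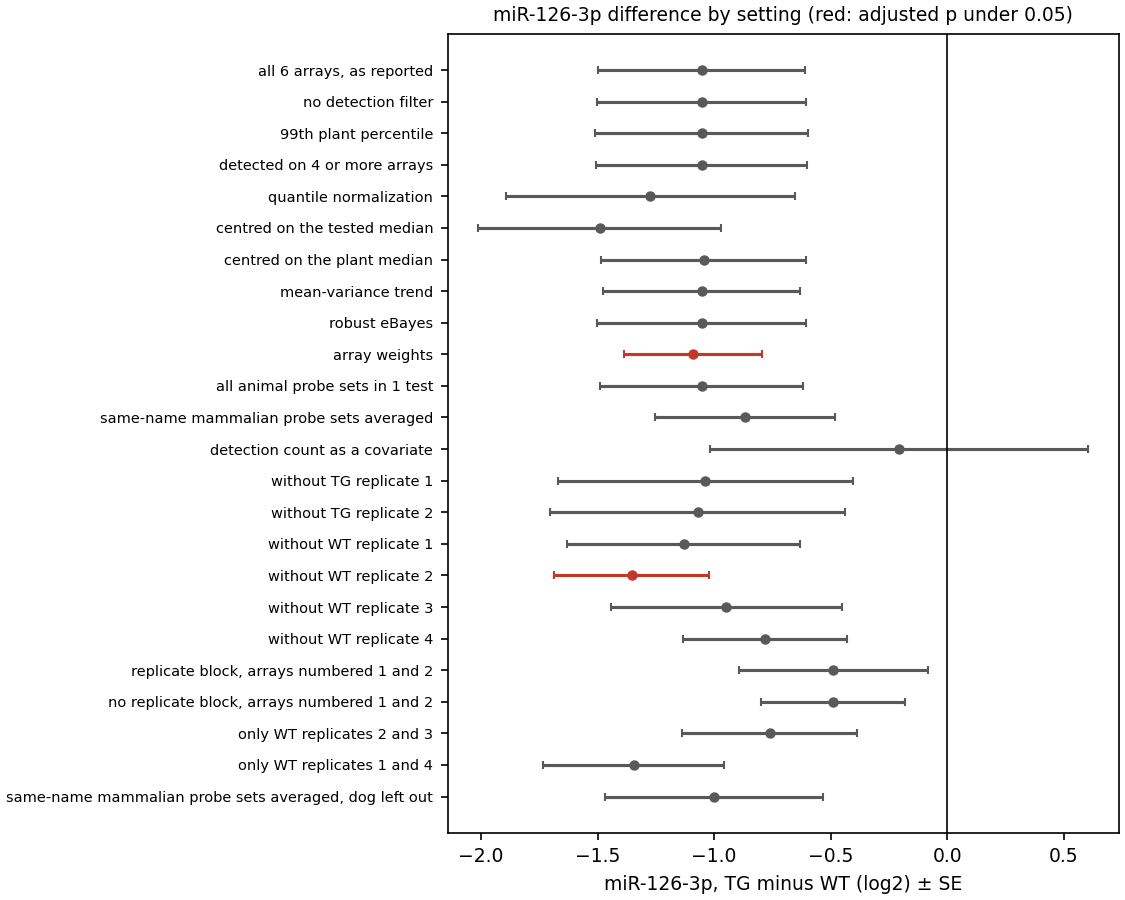
Difference of mouse miR-126-3p, TG minus WT, on the log2 scale (horizontal axis; points with SE bars) under each processing setting (vertical axis), with the value from all 6 arrays at the top and red for an adjusted p under 0.05. Every point lies below 0, from -1.49 with centring on the tested median to -0.21 with the detection count as a covariate, and 2 settings pass.

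The order of the 6 arrays by miR-126-3p was the exact reverse of their order by the number of mouse probe sets detected. The TG arrays, with 201 and 199 detected, had 9.30 and 9.34. WT replicate 2, with 172, had 9.48, and WT replicate 1, with 149, had 10.14. WT replicate 3, with 146, had 10.69, and WT replicate 4, with 132, had 11.19. The order thus held among the WT arrays alone as well as between the groups. With the number of detected probe sets of other animals on each array as a covariate, the difference of miR-126-3p was -0.21 ± 0.81 (SE), with an adjusted p of 0.947 by limma. Both TG arrays had the highest counts, so this fit separates genotype from detection only through the WT arrays.

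**Figure D3:**
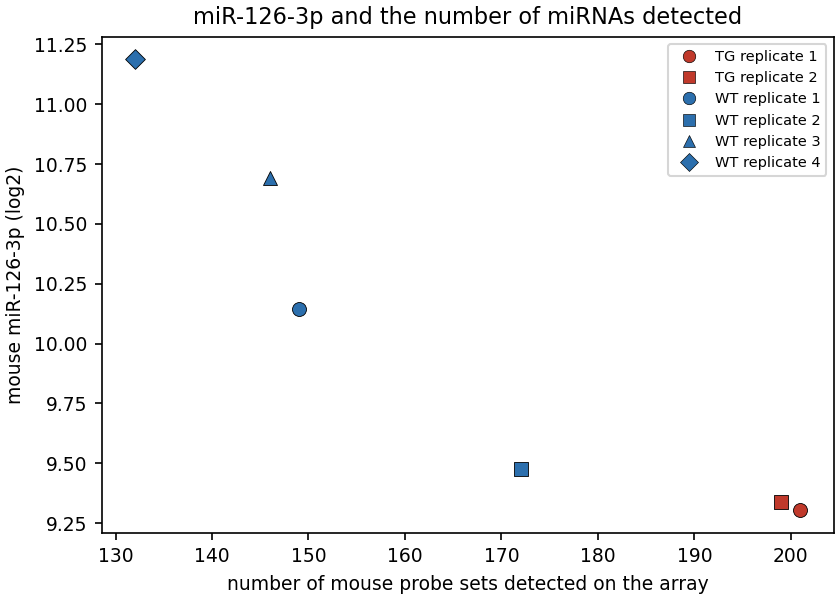
Mouse miR-126-3p (vertical axis, log2) against the number of the 609 mouse probe sets detected on the same array (horizontal axis), 1 point per array, TG in red and WT in blue. The points descend without exception from WT replicate 4, at 132 detected and 11.19, to TG replicate 1, at 201 detected and 9.30.

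The probe sets of other mammals gave similar differences. The human probe set had 9.22 and 9.38 in TG, against 10.17, 9.33, 10.65 and 11.26 in WT replicates 1 to 4. Its groups overlapped, because WT replicate 2 lay between the TG arrays. The same was true of the macaque probe set, with 9.30 and 9.41 in TG and 10.06, 9.35, 10.61 and 11.22 in WT. The rat probe set, with 9.33 and 9.41 in TG and 10.17, 9.43, 10.42 and 11.19 in WT, and the cow probe set, with 8.71 and 8.69 in TG and 9.68, 8.81, 9.80 and 10.56 in WT, had no overlap. Over these 4 probe sets the differences ran from -1.05 for human to -0.93 for rat.

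The dog probe set named miR-126 behaved otherwise. It had 3.75 and 3.90 in TG, against 4.09, 4.02, 4.22 and 3.78 in WT, and was below the detection limit on all 6 arrays. Its name gives no arm, and its sequence was not used here. The per-array mean over all 5 non-mouse mammalian probe sets named miR-126 averaged 8.11 ± 0.07 for TG and 8.94 ± 0.59 for WT (SD, n = 2 and 4), a difference of -0.83 (exact two-sided permutation p = 0.200). Without the dog probe set the means were 9.18 ± 0.06 for TG and 10.17 ± 0.76 for WT, and the difference was -0.99, with the same p.

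Among vertebrates outside the mammals, the chicken, frog, zebrafish and both pufferfish probe sets named miR-126 were detected on all 6 arrays. Their values ran from 7.21 to 8.90 in TG and from 7.59 to 10.52 in WT, and their differences from -1.15 for frog to -0.96 for the pufferfish coded tni. The pufferfish coded fru had overlapping groups, with 7.47 and 7.64 in TG against 7.61 in WT replicate 2. Over the 9 detected probe sets of other vertebrates, mammals included, 6 had both TG arrays below all WT arrays, as did 133 (9.68%) of the 1374 probe sets of these animal groups detected on 2 or more arrays. The 9 read the same miRNA name and are not independent. Across the 6 arrays their Pearson r with the mouse probe set lay between 0.926 for the pufferfish coded fru and 0.996 for human, as a description of probe sets that read the same samples.

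miR-126-5p was not detected on any array. Its log2 values were 3.81 and 3.99 in TG and 4.13, 3.73, 4.04 and 3.99 in WT replicates 1 to 4, against limits of at least 4.22. The groups overlapped, with WT replicate 2 lowest and WT replicate 1 highest. Values at background carry no order, so no fold is given, and the probe set was outside the 197 tested. Without the detection filter, over all 609 mouse probe sets, limma gave miR-126-5p an adjusted p of 0.948.

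The human, rat and cow probe sets named miR-126-star were likewise detected on 0 arrays. Their values ran from 3.84 to 4.11 in TG and from 3.87 to 4.12 in WT. The chicken, frog and zebrafish probe sets of that name were below the limit on all arrays too, at 3.78 to 4.14 in TG and 3.86 to 4.20 in WT. The array therefore gave a level for 1 strand of miR-126, and a value below the limit does not show that the other strand is absent. The per-array difference 3p minus 5p was 5.42 ± 0.10 for TG and 6.40 ± 0.65 for WT (SD, n = 2 and 4), which differed by -0.98 (exact two-sided permutation p = 0.133). With 5p at background, this contrast carries the change of 3p and no information on how the hairpin's strands were chosen.

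**Figure D4:**
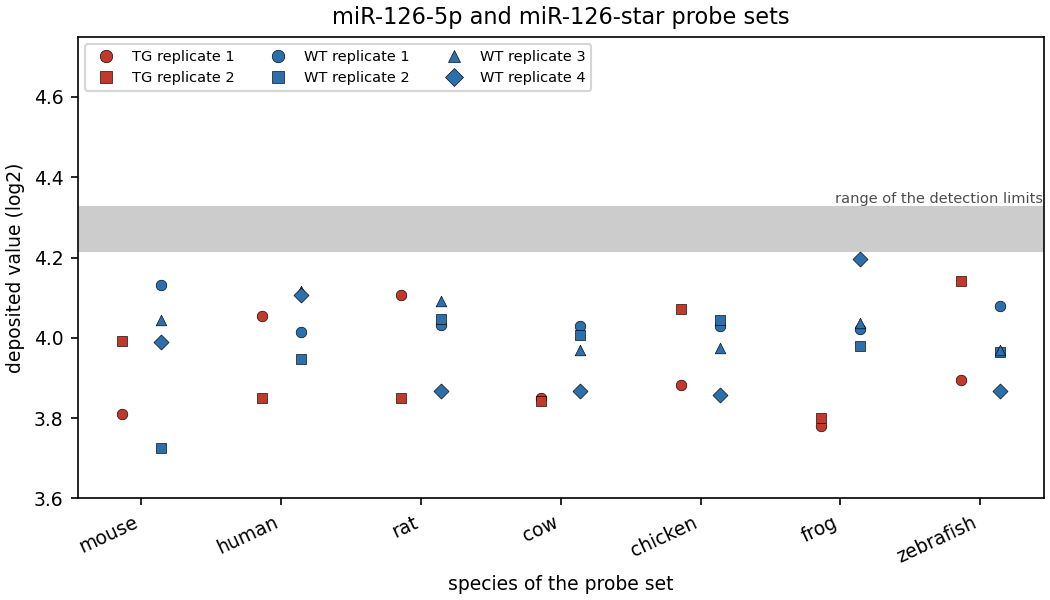
Deposited log2 value (vertical axis, not starting at 0) of the mouse miR-126-5p probe set and of 6 probe sets named miR-126-star in other vertebrates (horizontal axis), 1 point per array, TG in red to the left and WT in blue to the right of each tick; the grey band spans the detection limits. All points lie below the band, and the highest is WT replicate 4 of the frog probe set at 4.20.

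The mouse miRNAs whose pattern was most like that of miR-126-3p over the 6 arrays were miR-99a, with a Pearson r of 0.952, miR-30a at 0.949, miR-20a at 0.893, miR-199b at 0.889 and miR-143 at 0.874. The median r over the other 196 tested probe sets was -0.545, and 17 of them had an r under -0.9, so opposed patterns were common on the deposited scale. miR-99a had 6.51 and 6.91 in TG, against 7.48, 6.70, 7.56 and 7.90 in WT, with overlapping groups. miR-30a, of the miR-30 family that is abundant in lung, had 8.22 and 8.19 in TG, against 9.02, 8.32, 8.86 and 9.58 in WT, with no overlap. In both, as in miR-126-3p, WT replicate 2 was the lowest WT array and WT replicate 4 the highest. Both were picked for their high r over these same arrays, so a similar order follows in part from the choice.

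Of these 5 miRNAs 0 passed the test between TG and WT. The differences were -0.70 ± 0.35 (SE) for miR-99a, -0.74 ± 0.35 for miR-30a, -0.20 ± 0.24 for miR-20a of the miR-17-92 cluster, -0.62 ± 0.38 for miR-199b and -0.50 ± 0.38 for miR-143 of smooth muscle. limma gave adjusted p-values from 0.277 to 0.725. With arrays centred on their tested medians, miR-99a and miR-30a still had the highest r, 0.975 and 0.972. On that scale miR-20a, miR-143 and miR-199b stood at places 4, 6 and 11. Within the 4 WT arrays, which were among those used to pick the 5, their r ran from 0.851 to 0.953.

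**Figure D5:**
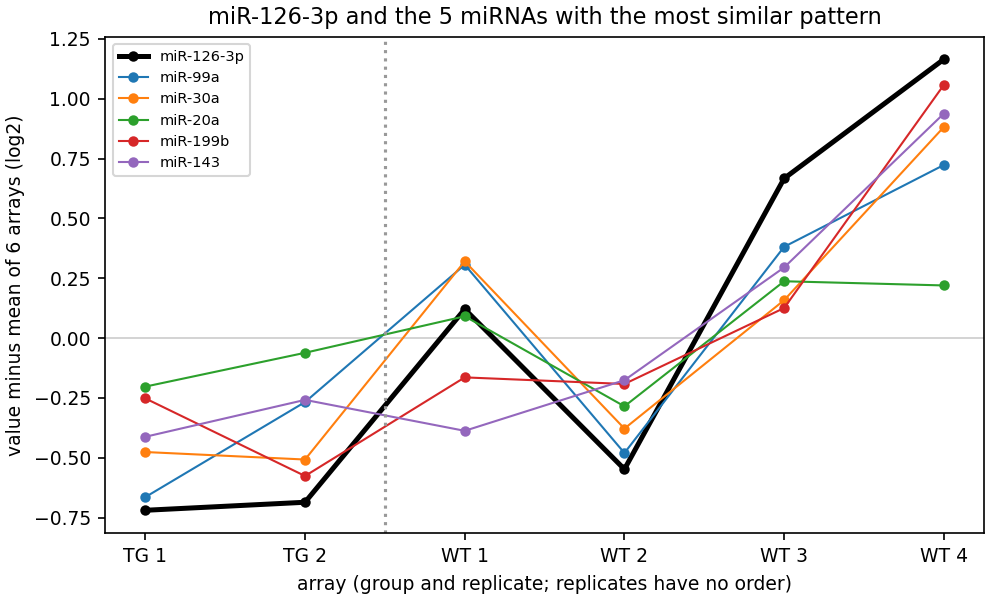
Values of mouse miR-126-3p (thick black line) and of the 5 mouse miRNAs most like it, each minus its own mean over the 6 arrays (vertical axis, log2), by array (horizontal axis), with the TG arrays left of the dotted line and the WT arrays right of it. WT replicate 4 is highest in 5 of the 6 and miR-126-3p has the widest swing, from 9.30 in TG replicate 1 to 11.19 in WT replicate 4 before the mean was subtracted.

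Other miRNAs with roles in endothelium or vessel growth did not share one direction. Of the 39 in a list drawn up from such roles, 33 were tested, 18 with positive and 15 with negative differences. Their median difference was 0.14, beside 0.21 over all 197. In this list 1 was called higher in TG and 0 lower, beside the 3.05% called overall. miR-34a, a target of p53 that slows endothelial growth, was the member called, at 6.56 and 6.35 in TG against 4.86, 5.49, 4.70 and 4.51 in WT, with an adjusted p of 0.0428 by limma. Its TG arrays lay above all WT arrays, as they did for 10 of the 33 and for 58 of the 197 (29.4%).

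The next members by p did not pass. miR-10a, which restrains inflammatory activation of endothelium, had 4.50 and 4.59 in TG against 6.43, 5.38, 5.88 and 6.40 in WT, a difference of -1.48 with an adjusted p of 0.0604. miR-199a-5p had 5.57 and 5.50 in TG against 3.81, 4.38, 4.89 and 4.28 in WT, with 2 of the WT arrays below the limit and an adjusted p of 0.0812. miR-221, which represses Kit in endothelial cells, had 7.71 on both TG arrays against 6.72, 7.17, 7.27 and 6.79 in WT, with an adjusted p of 0.160. In these 3, picked for their small p, the groups did not overlap, with miR-10a values lower and the others higher in TG. Both TG arrays lay below all WT arrays for 3 of the 33 members, beside the 6.6% of all tested.

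Markers of the other cells of the lung lobe were read on the same arrays. Some of these markers are also in the list of endothelial and vessel roles. They are miR-155 (leukocyte), miR-200b and miR-200c (epithelial), miR-143 and miR-145 (smooth muscle) and miR-199a-5p (mesenchymal). Averaged over its mouse probe sets on each array, the leukocyte list (6 members, 4 tested, 0 called) lay at 5.24 and 5.29 in TG and at 4.86 to 5.23 in WT. The differences of its tested members were 1.14 for miR-342-3p, 0.71 for miR-155, 0.22 for miR-150 and -0.27 for miR-223. The negative one, miR-223, was detected on 0 TG arrays and 2 WT arrays, so it was tested only through WT and lay near the limit. miR-155 was detected on 2 TG arrays and 2 WT arrays. The defining markers of this list, miR-142-3p and miR-142-5p, were detected on 0 arrays. The epithelial list (8 members, 8 tested, 0 called) lay at 5.46 on both TG arrays and at 5.19 to 5.38 in WT. Its median difference was 0.22, beside 0.21 over all 197, with 5 members above 0 and 3 below. The TG values exceeded every WT value in 2 of the 8, beside 58 of the 197 (29.4%). These 2 were miR-200c and miR-205. As miR-205 was detected on 2 TG arrays and 0 WT arrays, it was tested only through TG. The erythroid list (3 members, 2 tested, 0 called), at 5.48 to 5.51 in TG and 4.90 to 5.81 in WT, and the smooth muscle list (2 members, 2 tested, 0 called), at 9.15 to 9.20 in TG and 8.62 to 9.52 in WT, overlapped between the groups. So did the mesenchymal list (4 members, 4 tested, 0 called), at 6.17 to 6.30 in TG and 5.77 to 6.46 in WT. The mean of the striated muscle list (5 members, 1 tested, 0 called) lay below the limits, at 3.98 to 4.07 in TG and 4.04 to 4.16 in WT. Of its members, miR-133b was detected on 2 WT arrays, miR-1 on 1 WT array and miR-133a on 1 TG array. The members miR-206 and miR-208a were detected on 0 arrays. The part of cell composition in the miR-126-3p difference was not tested.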

How the data were processed

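RNA was isolated with TRIzol and biotin-labelled following Affymetrix, per the labels' protocols. The authors deposited 1 value per probe set and array, taken here as log2 because values reach 13.36 above a dense floor near 4; the base is inferred, and folds rest on it. How signals were corrected, summarized and normalized, and in which scan batches, is not given in the sources used here, while 0 columns were left unused.

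Probe sets were classed by species prefix (609 mouse, 1631 plant). Mouse probe sets above the 95th plant percentile on 2 or more arrays were tested, TG against WT. The fit used lmFit and eBayes of limma 3.58.1 (R 4.3.3, two-sided, no covariate) with Benjamini-Hochberg adjustment. It was first tried on simulated data with independent noise for each probe set and array. The simulation held no shift of a whole array, so it does not cover such shifts. Exact permutation tests took the absolute difference of means over 15 splits. The named miRNAs are the members, same-name probe sets, the 5 with the highest r to miR-126-3p, and the 4 of the vessel list with the smallest p; miR-805, miR-195 and let-7f were named after their values were seen. Members and lists were chosen with earlier results of these data known. Alternatives covered the filter, normalization, centring, variance model, array weights, features tested, same-name averaging, a detection covariate, each array left out and the replicate number as a block.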

Additional observations from a re-analysis of the deposited data

How the results depend on the processing

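The difference of miR-126-3p kept its sign under all 23 alternatives, from -1.49 to -0.21, and passed the threshold in 2, with array weights (-1.09) and without WT replicate 2; leaving out single arrays gave -1.35 to -0.78. The measured difference of miR-126-5p, all of it at background, was -0.07 with all arrays, -0.51 with centring on the tested median, 0.31 with the detection covariate and -0.16 to 0.02 with single arrays left out. The mean of the mammalian miR-126 probe sets ran from -1.27 to -0.61 and the strand contrast from -1.21 to -0.72.

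The count of called mouse probe sets, 6 with all arrays, was 1 without the detection filter and 1 with detection on 4 or more arrays, 2 with the 99th plant percentile and 2 with centring on the tested median, 0 with quantile normalization and 0 with the detection covariate, 14 with all animal probe sets in 1 test and 14 with same-name averaging, 33 with array weights, and 0 to 27 with single arrays left out. Chosen after the data were seen, only WT replicates 1 and 4 gave 31 calls and a miR-126-3p difference of -1.35, and only WT replicates 2 and 3 gave 6 calls and -0.76. On the arrays numbered 1 and 2, the replicate block gave 12 calls and a miR-126-3p difference of -0.49 (adjusted p of 0.636 by limma), against 0 calls and an adjusted p of 0.475 without the block. Deviations of same-numbered arrays from their group means correlated at -0.21 and 0.07. With 2 TG arrays, the deviations of TG replicate 1 mirror those of TG replicate 2. These values therefore cannot show whether same-numbered arrays share more than a number. Why the counts and differences changed between settings was not tested.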

Other observations

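Probe sets named miR-126 in 2 sea squirts (Ciona) gave low signals. The one coded cin was detected on all 6 arrays and had 4.25 and 4.40 in TG, against 4.78, 4.56, 4.73 and 4.96 in WT replicates 1 to 4, with no overlap and a Pearson r of 0.913 with the mouse probe set over the 6 arrays. The one coded csa was detected on 5 of 6, the exception being WT replicate 3, and had 4.63 and 4.78 in TG, against 4.53, 4.47, 4.23 and 5.08 in WT, with overlap and an r of 0.198. Their sequences were not used here.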
